A study of Mus musculus with 18 samples.

Results

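The genes described here are 10 components of the classical complement pathway, taken by name wherever they are listed: C1qa, C1qb, C1qc, C1ra, C1s1, C2, C3, C4b, Serping1 and C3ar1. All 10 were found among the 55333 named genes of the first of the authors' tables and the 55386 of the second, and all 10 passed the filter on low values in each, though C1s1 passed in the second through its WT129 libraries alone. Polyadenylated RNA had been sequenced from the retinal pigment epithelium (RPE), the pigmented layer behind the photoreceptors, of mice at postnatal day 25, taken 1 h after light onset with no treatment or culture. The 18 libraries fell into 5 groups: 3 labelled Mertk-/-V2Tyro3-/-V2, 3 Tyro3-/-V1 and 6 C57BL/6 (genotype C57BL/6J) in the first table, and 3 Itgb5-/- and 3 WT129 in the second. Tyro3 and Mertk are related receptor tyrosine kinases, and Itgb5 makes the beta subunit of an integrin; Mertk and that integrin help the RPE take up shed photoreceptor tips. The labels give the alleles only by these names, with no age beyond day 25, no sex and no word on whether animals were pooled.

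In the classical pathway, C1q binds a surface or an antibody and carries the proteases C1r and C1s. C1s cleaves C4 and C2, their fragments form the enzyme that cleaves C3, and the C1 inhibitor (Serping1) blocks C1r and C1s. The small fragment of C3 acts on cells through the receptor C3ar1. In the retina C1q is mostly a product of microglia and macrophages, whereas the RPE itself makes regulators and several components of the cascade, and variants of complement genes are known for their link to macular degeneration.

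Values are the authors' normalized counts per gene. Recovered depth was 25385952 to 30401422 reads per library in RPE labelled Mertk-/-V2Tyro3-/-V2, 25073575 to 30154428 in Tyro3-/-V1, 14135502 to 30191733 in C57BL/6, 21869734 to 26285762 in Itgb5-/- and 21766777 to 24518548 in WT129. The targeted genes checked the labels in part. Tyro3 averaged 1705 normalized counts in RPE labelled Mertk-/-V2Tyro3-/-V2 and 1292 among Tyro3-/-V1 libraries, against 3398 in C57BL/6, and Itgb5 averaged 1199 in Itgb5-/- against 3622 in WT129. Mertk was 3409 ± 631 (SD, n = 3) in RPE labelled Mertk-/-V2Tyro3-/-V2, against 3202 ± 454 in C57BL/6 (SD, n = 6), so its total did not check that label, and the group is called by it throughout. C57BL/6 replicates 1 to 3 and all mutant libraries of the first table carry the mark 23 in their names, which C57BL/6 replicates 4 to 6 lack. The meaning of the mark is not given, and fold changes against C57BL/6 come from a fit with a term for it, so they compare with replicates 1 to 3 while the spread comes from all 12 libraries. All 15 RPE markers listed (Rpe65, Best1, Rlbp1 and others) were present in every group, with a summed level of 505906 to 789721 normalized counts in RPE labelled Mertk-/-V2Tyro3-/-V2, 779499 to 1085637 in Tyro3-/-V1, 661671 to 1011833 in C57BL/6, 635493 to 704060 in Itgb5-/- and 493093 to 682714 in WT129. Of these 15, 1 fell in RPE labelled Mertk-/-V2Tyro3-/-V2 against C57BL/6 by limma (Rpe65, log2 −1.53, adjusted p = 0.0268) and 0 rose, where 0.249% of all genes fell. The median was −0.35, with 8 below 0 and 7 above. Rpe65 was also lower there than in Tyro3-/-V1 (−1.46, limma adjusted p = 0.0379). The part of this in the complement values was not tested. Markers of rods, microglia, endothelium and fibroblasts were present too, with none at 0 in a whole group. In such bulk samples, more cells of a type and more RNA per cell cannot be told apart.

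The sequence just before the start is shown for 3 members, 2 neighbours in the C1q cluster whose levels in RPE labelled Mertk-/-V2Tyro3-/-V2 lay above all of C57BL/6, and the gene with no read in Itgb5-/-. They are from RefSeq on GRCm38.p6, 5′ to 3′ on the strand of the gene, limited to bases before the RefSeq start and outside the gene as GENCODE draws it. The C1qb sequence lies at chr4:136886201-136886450 and that of C1qc at chr4:136893066-136893164, both on the minus strand. That of C1s1 lies at chr6:124542360-124542609 on the minus strand.
C1qb: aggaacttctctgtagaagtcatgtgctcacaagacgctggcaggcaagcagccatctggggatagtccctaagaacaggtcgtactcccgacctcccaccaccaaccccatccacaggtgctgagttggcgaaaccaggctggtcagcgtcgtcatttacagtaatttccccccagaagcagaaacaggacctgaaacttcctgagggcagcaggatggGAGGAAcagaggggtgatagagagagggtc
C1qc: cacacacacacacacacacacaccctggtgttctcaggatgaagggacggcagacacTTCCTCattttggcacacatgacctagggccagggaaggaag
C1s1: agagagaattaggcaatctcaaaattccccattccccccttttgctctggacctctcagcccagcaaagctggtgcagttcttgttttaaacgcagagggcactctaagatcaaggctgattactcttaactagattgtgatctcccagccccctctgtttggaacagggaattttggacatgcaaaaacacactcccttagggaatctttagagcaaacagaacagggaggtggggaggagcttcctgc
Capitals mark GAGGAA on either strand, a core that the myeloid factor PU.1 can bind. It was found in 2 of the 6 members with a sequence, C1qb and C1qc, 30 and 193 bases before the start, and in 23.1% of the 27025 promoters of the same 250 bases. The interferon-type motifs TTCNNNGAA and GAAANNGAA, searched on both strands, were in 0 of the 6, and in 7.18% and 7.16% of all promoters. No such sequence was at hand for C4b, Serping1, C1qa and C2, so these members were not searched for any motif. These matches describe letters, not binding.

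C4b, Serping1 and C1qc were higher by limma in RPE labelled Mertk-/-V2Tyro3-/-V2 than in C57BL/6, C4b by 4.45-fold as set against replicates 1 to 3. The Serping1 and C1qc calls each passed in only 1 of 9 fits that left out a library, and with only marked libraries 0 of the 10 were called. Of the 10 members, 3 rose (C4b, Serping1 and C1qc) and 0 fell by limma at an adjusted p below 0.05, where 0.274% of the 19711 genes tested rose and 0.249% fell. The log2 fold change was above 0 for 10 of 10, with a median of 0.68 against 0.01 over all genes tested. In 7 of 10 every library labelled Mertk-/-V2Tyro3-/-V2 lay above every C57BL/6 library, which held for 3.47% of all genes. An unadjusted p below 0.05 was reached by 9 of 10, against 21.9% of all genes. On reads recovered from the normalized counts, edgeR called the same 3 members, where it called 0.614% of genes in either direction, and DESeq2 called 6, where it called 9.49%. The 3 further genes called by DESeq2 were C1qa, C1qb and C3ar1.

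Tyro3-/-V1 gave 0 calls among the 10 members against C57BL/6 by limma, where 0.0304% of genes rose and 0.0152% fell. The median log2 fold change of the members was 0.26, against 0.00 over all genes, and 2 of 10 members, Serping1 and C1s1, had an unadjusted p below 0.05, against 6.71% of all genes. Every Tyro3-/-V1 library lay above every C57BL/6 library for 1 member, C1s1, against 2.59% of all genes. The edgeR test called 0 members (0.0457% of genes) and DESeq2 called 1, Serping1 (0.676% of genes). Set directly against Tyro3-/-V1, RPE labelled Mertk-/-V2Tyro3-/-V2 had 1 member higher, C4b, and 0 lower, where limma called 0.0406% of genes higher and 0.0964% lower. The groups did not overlap for 4 members, C4b, C1qb, C1qc and C3ar1, against 10.9% of all genes, and 4 had an unadjusted p below 0.05, against 13.8% of all genes. Here edgeR called 1 member (0.178% of genes) and DESeq2 called 3 (3.56%), C4b, C1qc and C3ar1. These comparisons share libraries, so their values are given side by side and no likeness between them is drawn.

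In Itgb5-/- no read of C1s1 was found and C1ra was at 15.2% of the WT129 mean. By limma 1 of 10, C1s1, fell and 0 rose against WT129, where 0.0215% of the 18648 genes tested fell and 0.0161% rose. The filter kept C1s1 through its WT129 libraries alone, so it could be called only as lower, and the call adds no support of its own. Every Itgb5-/- library lay below every WT129 library for 2 members, C1s1 and C1ra, against 7.68% of all genes. For C1s1 the filter fixed this in advance, so only C1ra can be set against that share. The median log2 fold change of the members was 0.19, against 0.04 over all genes, with C1s1 the lowest of the 10 whether at its fitted value or at its bound. An unadjusted p below 0.05 by limma was reached by 2 of 10, C1ra and C1s1, against 8.28% of all genes, and C1s1 could again only test as lower. The edgeR test called 0 members (0.0268% of genes), and DESeq2 called C1s1 and C1ra (2.3% of genes).

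**Figure D1:**
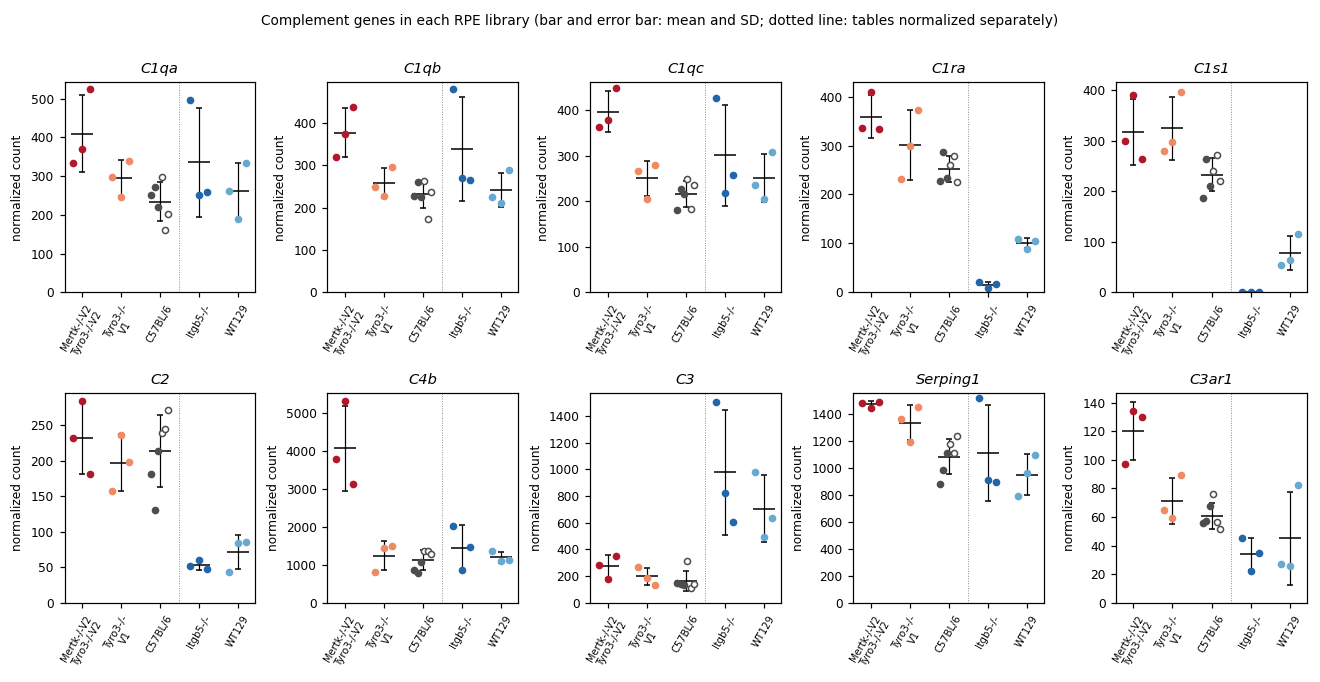
Normalized counts of the 10 genes (y axis) in each library, by group (x axis), with the mean as a bar and the SD as an error bar; open C57BL/6 circles are replicates 4 to 6, without the mark 23, and the dotted line parts the tables that were normalized separately. The 3 libraries labelled Mertk-/-V2Tyro3-/-V2 sit between 3133 and 5311 for C4b, above all others, and the 3 Itgb5-/- libraries are at 0 for C1s1.

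**Figure D2:**
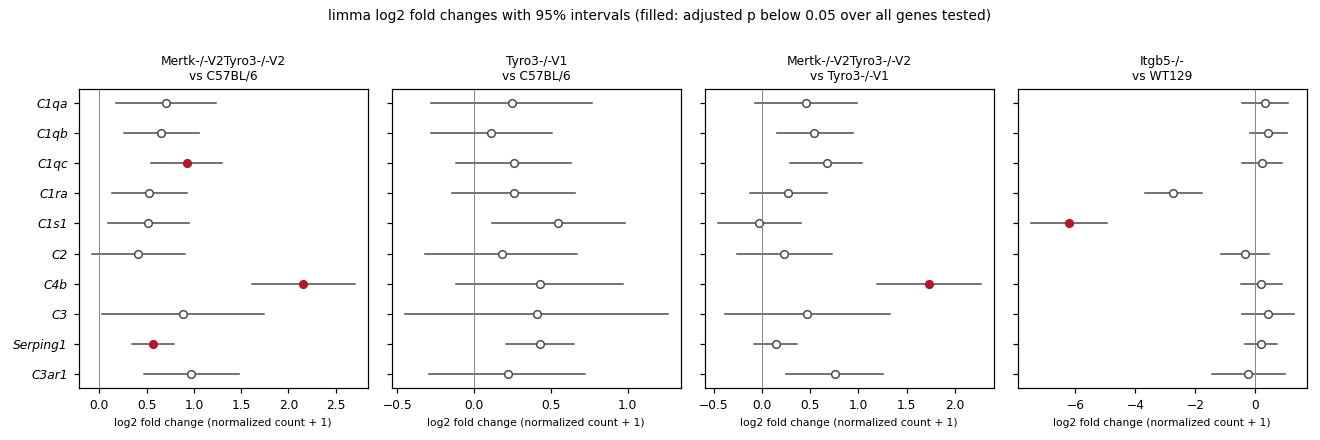
The limma log2 fold change of each gene (x axis) with its 95% interval, in 4 comparisons, each on its own x scale; filled points passed an adjusted p of 0.05 over all genes tested. C4b is the point farthest right in both comparisons of RPE labelled Mertk-/-V2Tyro3-/-V2, and C1s1 and C1ra are the points farthest left in Itgb5-/-.

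The 3 chains of C1q, the recognition molecule, are encoded side by side on chromosome 4 of GRCm38 (C1qb at 136880129 to 136886187, C1qc at 136889804 to 136893065, C1qa at 136895917 to 136898803, all minus strand). C1qc had 363, 379 and 448 normalized counts in RPE labelled Mertk-/-V2Tyro3-/-V2 and 206 to 279 in the 3 Tyro3-/-V1 libraries, against 181, 222 and 250 (lowest, median and highest of 6) in C57BL/6. The first group lay above each of the other two without overlap. Against C57BL/6 the difference on the log2 scale was 0.93 ± 0.17 (SE, limma adjusted p = 0.0459), a 1.9-fold rise, and the exact two-sided permutation p was 0.0238, the smallest that 6 against 3 libraries can give. This call passed in 1 of 9 fits that left out a library, the one without C57BL/6 replicate 4, and the adjusted p ranged from 5.73e-05 to 0.171 over all alternatives.

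C1qa had 335, 371 and 524 normalized counts in RPE labelled Mertk-/-V2Tyro3-/-V2, against 160, 235 and 298 (lowest, median and highest) in C57BL/6. C1qb had 320, 373 and 437 in RPE labelled Mertk-/-V2Tyro3-/-V2, against 174, 233 and 263 in C57BL/6. Neither gene's groups overlapped, but neither passed limma: the log2 fold change was 0.71 for C1qa (95% interval 0.18 to 1.23, adjusted p = 0.154) and 0.65 for C1qb (0.26 to 1.05, adjusted p = 0.108). In Tyro3-/-V1 the fold changes of the 3 chains against C57BL/6 were 0.25, 0.11 and 0.26 (C1qa, C1qb and C1qc), with intervals that include 0. Per 100 counts of C1qa there were 83.4 to 101 of C1qb in RPE labelled Mertk-/-V2Tyro3-/-V2 and 83.9 to 92.4 in Tyro3-/-V1, against 88.2 to 117 in C57BL/6, so the proportion of these chains overlapped between the groups.

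In Itgb5-/- the C1q chains were spread widely by replicate 1, which had 498 normalized counts of C1qa, 480 of C1qb and 428 of C1qc, while replicates 2 and 3 had 250 and 259, 270 and 264, and 219 and 258. The WT129 libraries had 190 to 334, 211 to 288 and 206 to 309. Replicates 2 and 3 thus lay inside the WT129 range for each chain, and the log2 fold changes of 0.32, 0.44 and 0.23 did not pass (limma adjusted p = 0.815, 0.702 and 0.848). Without Itgb5-/- replicate 1 they were −0.0026 for C1qa and −0.06 for C1qc.

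C1q was set beside the 25 microglia and macrophage markers listed, which leave the 10 members out. Their sum was 10605 to 13398 normalized counts in RPE labelled Mertk-/-V2Tyro3-/-V2 and 13133 to 16161 in Tyro3-/-V1, against 9987 to 15415 in C57BL/6, and both mutant groups overlapped C57BL/6. It was 15296 to 18782 in Itgb5-/-, against 12715 to 14136 in WT129, without overlap. The summed C1q chains equalled 8.39 to 13.3% of this sum in RPE labelled Mertk-/-V2Tyro3-/-V2 and 5.18 to 5.73% in Tyro3-/-V1, against 4.92 to 6.54% in C57BL/6, and 4.8 to 7.49% in Itgb5-/- against 4.77 to 7.1% in WT129. The share in RPE labelled Mertk-/-V2Tyro3-/-V2 thus lay above both other groups of its table, while Tyro3-/-V1 overlapped C57BL/6 and Itgb5-/- overlapped WT129.

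Whether this share overlapped C57BL/6 depends on Csf1r, a receptor gene of macrophages and microglia that made up 55.1% of the list's sum. Csf1r had 4379 to 7294 normalized counts in RPE labelled Mertk-/-V2Tyro3-/-V2, against 6146 to 10101 in C57BL/6 (log2 −0.69, limma adjusted p = 0.125). Over the other 24 markers, a choice made after the values were seen, the sum was 6104 to 6226 in RPE labelled Mertk-/-V2Tyro3-/-V2 and 5717 to 7173 in Tyro3-/-V1, against 3841 to 5462 in C57BL/6, so that both mutant groups lay above C57BL/6. C1q was then 16.6 to 22.6% of the sum in RPE labelled Mertk-/-V2Tyro3-/-V2 and 11.3 to 15.9% in Tyro3-/-V1, against 12.1 to 17.3% in C57BL/6. With Csf1r left out, the share in RPE labelled Mertk-/-V2Tyro3-/-V2 overlapped C57BL/6 and still lay above Tyro3-/-V1. In the second table the sum of these 24 markers was 7118 to 9271 in Itgb5-/- and 5036 to 7713 in WT129. These groups, apart with Csf1r counted, thus overlapped without it. C1q was 10.4 to 15.2% of that sum in Itgb5-/-, against 10.5 to 12.1% in WT129.

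The single markers differed in direction. Of the 25, 1 rose in RPE labelled Mertk-/-V2Tyro3-/-V2 against C57BL/6 by limma (Ctss, a lysosomal protease, log2 0.78, adjusted p = 0.0352) and 0 fell, where 0.274% of all genes rose and 0.249% fell. The median was 0.48, and 9 of 25 lay above C57BL/6 without overlap, against 3.47% of all genes. The fold change was below 0 for 3 of the 25, among them Csf1r and Itgam (log2 −1.08, adjusted p = 0.292). Of 5 defining microglial genes, Cx3cr1 had 235 to 354 normalized counts in RPE labelled Mertk-/-V2Tyro3-/-V2, against 145 to 250 in C57BL/6. P2ry12 had 34.1 to 76.6 in RPE labelled Mertk-/-V2Tyro3-/-V2, against 18.7 to 40.7 in C57BL/6. Tmem119 had 146 to 199 in RPE labelled Mertk-/-V2Tyro3-/-V2, against 99.8 to 182 in C57BL/6, and Aif1 had 31.7 to 51.1 in RPE labelled Mertk-/-V2Tyro3-/-V2, against 11.8 to 37 in C57BL/6. With Csf1r the 5 summed to 5023 to 7824 in RPE labelled Mertk-/-V2Tyro3-/-V2, against 6511 to 10493 in C57BL/6, and C1q was 0.144 to 0.28 of that sum in RPE labelled Mertk-/-V2Tyro3-/-V2, against 0.0723 to 0.108 in C57BL/6. All 5 genes and their sum overlapped between these groups, and the ratio of C1q to the sum did not. Csf1r alone held 4379 to 7294 of that sum in RPE labelled Mertk-/-V2Tyro3-/-V2 and 6146 to 10101 of it in C57BL/6. The ratio is thus largely one to Csf1r and is not separate from the Csf1r values given above. The part of the microglial level in the C1q result was not tested.

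**Figure D3:**
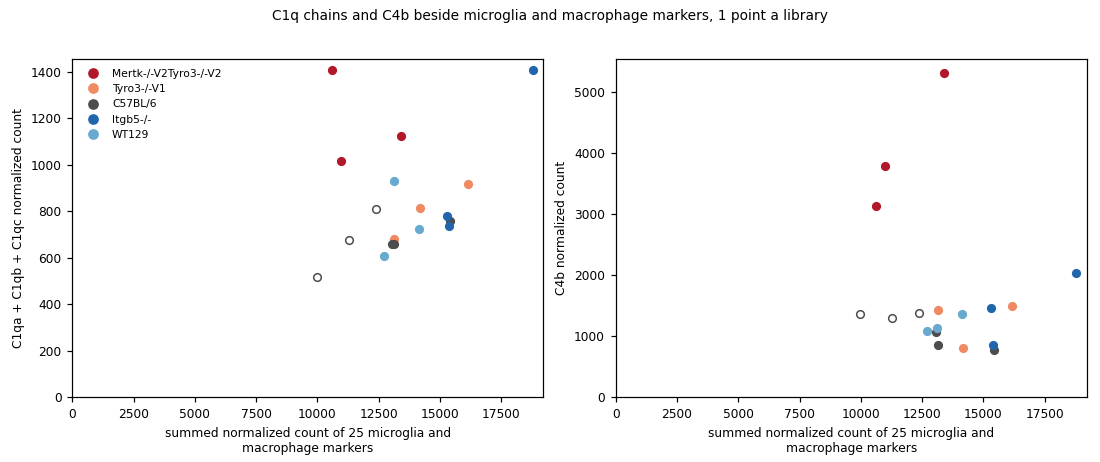
Each point is a library: the x axis is the summed normalized count of the 25 microglia and macrophage markers, and the y axis is the summed C1q chains (left) or C4b (right); open circles are C57BL/6 replicates 4 to 6. C4b of RPE labelled Mertk-/-V2Tyro3-/-V2, at marker sums of 10605 to 13398, is above every other library of the first table; Itgb5-/- and WT129 are from the table normalized separately.

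C1ra and C1s1 encode the proteases of the C1 complex and lie 3′ end to 3′ end on chromosome 6 (C1ra at 124512405 to 124523443 on the plus strand, C1s1 at 124530345 to 124542359 on the minus strand). C1s1 had 0 reads in all 3 Itgb5-/- libraries, out of 73396150 reads, against 54.1, 63.2 and 116 normalized counts (233 reads together) in WT129. It was at least 80.7-fold lower in Itgb5-/-, with 3 reads over the group as the limit that a count of 0 allows. The limma adjusted p was 0.0176 (fitted log2 fold change −6.22, which depends on the pseudocount), and the exact two-sided permutation p was 0.1, the smallest that 3 against 3 libraries can give. The adjusted p was 0.11 by edgeR and 1.03e-08 by DESeq2, and leaving out any of the 6 libraries in turn gave 0.0889 to 0.198. These p-values are for a gene that the filter kept through its WT129 libraries alone, so it could only test as lower.

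C1ra had 20.3, 7.8 and 17.5 normalized counts in Itgb5-/- (49 reads together), against 108, 88.8 and 104 in WT129 (299 reads). The groups were far apart, with Itgb5-/- at 15.2% of the WT129 mean. On the log2 scale the difference was −2.74 ± 0.41 (SE), which missed the threshold by limma (adjusted p = 0.177; exact permutation p = 0.1) and passed by DESeq2 (adjusted p = 2.48e-08).

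The neighbours of these genes were looked at next, C1rb and C1s2 by rule and C1rl, another C1r-like protease gene, after the values were seen. C1rb (124570294 to 124581171), a near copy of C1ra, had 97.3, 46.8 and 58 normalized counts in Itgb5-/-, against 60.6, 102 and 51.9 in WT129, and C1rl (124493113 to 124510643) had 177 to 225 in Itgb5-/-, against 126 to 227 in WT129. Both overlapped between the groups (log2 −0.09, limma adjusted p = 0.959, and 0.13, adjusted p = 0.906). C1s2 (124624625 to 124636085) had 3.34 to 9.21 in Itgb5-/-, against 3.66 to 22.7 in WT129. The 2 lower genes are thus next to each other between genes with overlapping levels. In the first table C1rb had 1 read in RPE labelled Mertk-/-V2Tyro3-/-V2, 1 in Tyro3-/-V1 and 0 in C57BL/6, so its reads came almost wholly from the second table, whose libraries are labelled Itgb5-/- and WT129. The 2 tables were normalized separately, and no difference between them was tested.

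The C1ra and C1rb transcripts share 48% of the 50-base windows of C1ra, and C1s1 and C1s2 share 21.8% of those of C1s1, so reads could be split or dropped and these counts are uncertain to that extent. The sum of C1ra and C1rb was 54.6 to 118 normalized counts in Itgb5-/-, against 156 to 190 in WT129, without overlap. The antisense gene Gm16567, which overlaps C1s1, had 0 normalized counts in every library. Summed fibroblast and mural markers were 23411 to 40949 in Itgb5-/-, against 18972 to 31915 in WT129, and endothelial markers were 10023 to 16583 in Itgb5-/-, against 9177 to 11444 in WT129. Both sums overlapped between the groups. Of the 14 fibroblast and mural markers, 7 had a fold change above 0 and 7 below (median log2 0.08), and 2 lay above WT129 and 1 below without overlap. Of the 12 endothelial markers, 10 were above 0 and 2 below (median 0.20). By limma 0 of either list were called. The part of these cells in the C1r and C1s result was not tested. Rod markers were lower in level: all 12 lay below WT129 without overlap, against 7.68% of all genes (0 called by limma, median log2 −1.52). Their sums were 64608 to 128921 in Itgb5-/- and 192277 to 453709 in WT129, and their part in the C1r and C1s result was not tested.

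**Figure D4:**
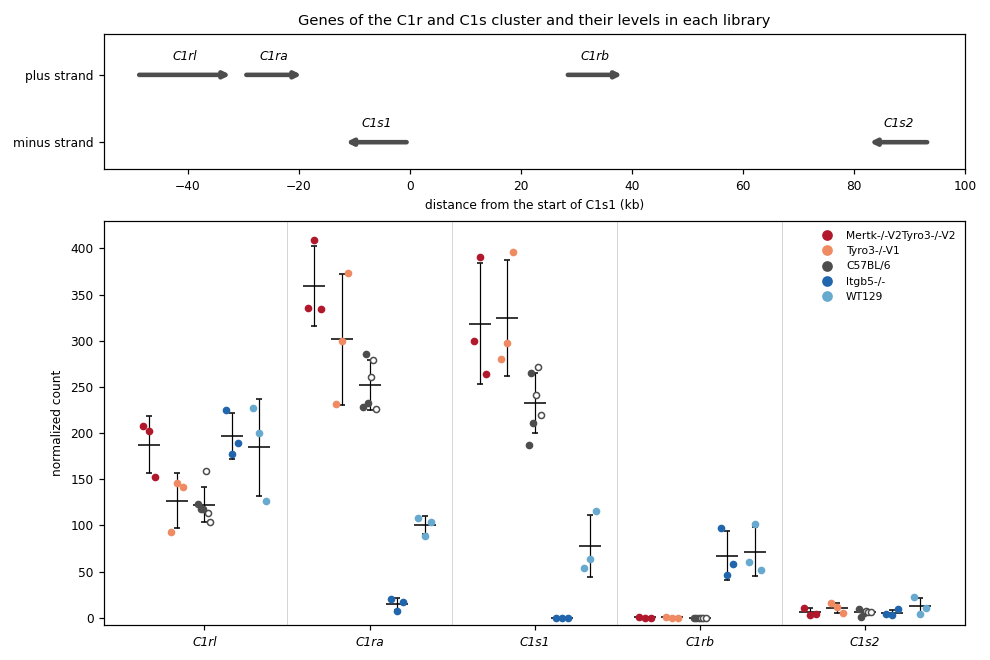
Above, the 5 genes of the cluster as arrows in the direction of transcription, with distance from the start of C1s1 in kb; below, their normalized counts per library (points) with mean and SD, for the 5 groups in the order of the legend, open C57BL/6 circles without the mark 23. C1ra and C1s1 of Itgb5-/- are at 7.8 to 20.3 and 0, while C1rl and C1rb of Itgb5-/- overlap WT129.

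In the first table the same proteases were not called. C1ra had 335, 409 and 334 normalized counts in RPE labelled Mertk-/-V2Tyro3-/-V2 and 231, 300 and 373 in Tyro3-/-V1, against 226, 247 and 286 (lowest, median and highest) in C57BL/6. C1s1 had 300, 391 and 264 in RPE labelled Mertk-/-V2Tyro3-/-V2 and 280, 298 and 396 in Tyro3-/-V1, against 187, 230 and 271 in C57BL/6. The Tyro3-/-V1 libraries lay above all C57BL/6 libraries for C1s1, with a log2 fold change of 0.55 (95% interval 0.12 to 0.98) that did not pass (limma adjusted p = 0.619; exact permutation p = 0.0238). The 14 fibroblast and mural markers summed to 60787 to 69965 in Tyro3-/-V1, against 40390 to 53384 in C57BL/6, without overlap. Of these markers 1 rose in Tyro3-/-V1 (Lum, a matrix proteoglycan, log2 1.23, limma adjusted p = 0.0358) and 0 fell, with a median of 0.57, where 0.0304% of all genes rose and 0.0152% fell. The sum in RPE labelled Mertk-/-V2Tyro3-/-V2, 51955 to 62119, overlapped C57BL/6, with 0 called and a median of 0.33. The 12 endothelial markers had a median of 0.72 in RPE labelled Mertk-/-V2Tyro3-/-V2 against C57BL/6 and of 0.85 in Tyro3-/-V1 against C57BL/6, with 0 called and overlapping sums (9406 to 10855 in RPE labelled Mertk-/-V2Tyro3-/-V2 and 6373 to 14814 in Tyro3-/-V1, against 4875 to 13007 in C57BL/6). The part of these cells in the C1s1 and C1ra values was not tested. In RPE labelled Mertk-/-V2Tyro3-/-V2 the values were 0.53 for C1ra (0.13 to 0.93, adjusted p = 0.156) and 0.52 for C1s1 (0.09 to 0.95, adjusted p = 0.179). There were 79.1 to 95.7 counts of C1s1 per 100 of C1ra in RPE labelled Mertk-/-V2Tyro3-/-V2 and 99.2 to 121 in Tyro3-/-V1, against 82.4 to 97.2 in C57BL/6. Tyro3-/-V1 lay above both other groups in this ratio, a difference that was not tested.

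Serping1, on chromosome 2 (84765387 to 84775444, minus strand), encodes the serpin that inactivates C1r and C1s. It had 1478, 1442 and 1484 normalized counts in RPE labelled Mertk-/-V2Tyro3-/-V2 and 1357, 1192 and 1449 in Tyro3-/-V1, against 878, 1107 and 1234 (lowest, median and highest) in C57BL/6. The 3 libraries of the first group lay close together and above all C57BL/6 libraries, and Tyro3-/-V1 overlapped C57BL/6. The rise in RPE labelled Mertk-/-V2Tyro3-/-V2 was 0.57 ± 0.10 on the log2 scale (SE, limma adjusted p = 0.0365; exact permutation p = 0.0238), or 1.49-fold. It passed in 1 of 9 fits that left out a library, the one without C57BL/6 replicate 4, and had an adjusted p of 0.14 without the term for the mark 23. In Tyro3-/-V1 it was 0.43 (0.21 to 0.65, adjusted p = 0.354), and the difference between the mutant groups was 0.14 (−0.08 to 0.36, adjusted p = 0.524). In the second table Serping1 had 1516, 908 and 894 in Itgb5-/-, against 792, 957 and 1096 in WT129, overlapping (log2 0.19, adjusted p = 0.843).

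C4b, whose product is cleaved by C1s and binds covalently to surfaces, lies on chromosome 17 (34728380 to 34743882, minus strand). It had 3783, 5311 and 3133 normalized counts in RPE labelled Mertk-/-V2Tyro3-/-V2 and 810, 1431 and 1490 in Tyro3-/-V1, against 777, 1182 and 1375 (lowest, median and highest) in C57BL/6. The lowest library labelled Mertk-/-V2Tyro3-/-V2 was thus above the highest of the other 9, and Tyro3-/-V1 overlapped C57BL/6. Against C57BL/6 the difference on the log2 scale was 2.15 ± 0.24 (SE, limma adjusted p = 0.0104; exact permutation p = 0.0238), or 4.45-fold. Against Tyro3-/-V1 it was 1.73 ± 0.24 (adjusted p = 0.026; exact permutation p = 0.1, the smallest possible), or 3.31-fold. Tyro3-/-V1 against C57BL/6 gave 0.43 (−0.12 to 0.97, adjusted p = 0.835).

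The size of the C4b rise depends on which C57BL/6 libraries it is set against. C57BL/6 replicates 4 to 6, without the mark 23, had 1375, 1369 and 1290 normalized counts and replicates 1 to 3 had 854, 777 and 1073, a difference that did not pass on its own (log2 0.59, limma adjusted p = 0.188). Without the term for the mark the log2 fold change was 1.86 (adjusted p = 0.012), and with only marked libraries the adjusted p was 0.0541. Leaving out C57BL/6 replicate 1 or 2 gave adjusted p = 0.0753 and 0.0958, and the other 7 such fits passed. Against Tyro3-/-V1, C4b passed in 1 of 6 fits that left out a library, the one without the library labelled Mertk-/-V2Tyro3-/-V2 replicate 3; the others gave 0.0501 to 0.102.

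C4b shares 34.6% of its 50-base windows with C4a (34809092 to 34823464), so its counts are uncertain to that extent. C4a itself had 29.1, 53.5 and 66.4 normalized counts in RPE labelled Mertk-/-V2Tyro3-/-V2, against 36.4, 44.3 and 49.8 (lowest, median and highest) in C57BL/6, overlapping (log2 0.19, limma adjusted p = 0.697). For every count of C4a there were 47.2 to 130 of C4b in RPE labelled Mertk-/-V2Tyro3-/-V2 and 19.4 to 39.1 in Tyro3-/-V1, against 17.4 to 29.4 in C57BL/6. As a share of the 25 microglia and macrophage markers, C4b was 29.5 to 39.6% in RPE labelled Mertk-/-V2Tyro3-/-V2 and 5.71 to 10.9% in Tyro3-/-V1, against 5.04 to 13.7% in C57BL/6. With Csf1r left out it was 50.3 to 87% in RPE labelled Mertk-/-V2Tyro3-/-V2 and 11.3 to 26% in Tyro3-/-V1, against 14.6 to 35.7% in C57BL/6. Either way, RPE labelled Mertk-/-V2Tyro3-/-V2 lay above both other groups. Of 12 Muller glia and astrocyte markers 0 were called in RPE labelled Mertk-/-V2Tyro3-/-V2 against C57BL/6, with a median log2 fold change of 0.95. The fold change was above 0 for 9 and below 0 for 3, and 11 of 12 had an unadjusted p below 0.05 by limma, against 21.9% of all genes. Their summed levels were 158507 to 185287 there, against 174800 to 209901 in C57BL/6, so median and sum differed in direction. Only 1 of 12 lay above all C57BL/6 libraries, against 3.47% of all genes, and 2 lay below. C57BL/6 without the mark 23 differed from C57BL/6 with it by log2 2.15 for Kcnj10 and 1.02 for Slc1a3, but −0.41 for Sox9. Against Tyro3-/-V1, 6 of 12 lay above without overlap, which held for 10.9% of all genes. The 12 rod markers had a median of 0.90 against C57BL/6, with 0 called and overlapping sums (95620 to 272151, against 36870 to 364965 in C57BL/6). The part of these markers in the C4b result was not tested.

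In Itgb5-/- C4b had 2035, 853 and 1469 normalized counts, against 1370, 1091 and 1139 in WT129. The WT129 libraries lay inside the Itgb5-/- range, and the log2 fold change was 0.19 (−0.49 to 0.88, limma adjusted p = 0.876). As with C1q and Serping1, Itgb5-/- replicate 1 held the highest value.

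C2, which supplies the protease of the C3-cleaving enzyme, lies on the same chromosome (34862604 to 34898265, minus strand). It had 232, 284 and 182 normalized counts in RPE labelled Mertk-/-V2Tyro3-/-V2 and 157, 237 and 199 in Tyro3-/-V1, against 131, 226 and 272 (lowest, median and highest) in C57BL/6. In the second table it had 51.3, 60.2 and 47.9 in Itgb5-/-, against 43.3, 84.2 and 85.5 in WT129. The groups overlapped in every comparison, and no fold change passed (log2 0.41, 0.18 and −0.35 in RPE labelled Mertk-/-V2Tyro3-/-V2, Tyro3-/-V1 and Itgb5-/- against their controls; limma adjusted p = 0.288, 0.965 and 0.804). The interval in RPE labelled Mertk-/-V2Tyro3-/-V2, −0.08 to 0.91, does not leave out a rise of the size seen for Serping1.

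C3, the central component (chromosome 17, 57203970 to 57228136, minus strand), had 286, 181 and 353 normalized counts in RPE labelled Mertk-/-V2Tyro3-/-V2 and 266, 188 and 136 in Tyro3-/-V1, against 111, 141 and 316 (lowest, median and highest) in C57BL/6. The highest C57BL/6 value was replicate 4, and the other 5 were at most 150, below every library labelled Mertk-/-V2Tyro3-/-V2. The log2 fold change was 0.88 (0.03 to 1.74, limma adjusted p = 0.221) in RPE labelled Mertk-/-V2Tyro3-/-V2, and Tyro3-/-V1 gave 0.41 (adjusted p = 0.951). Itgb5-/- had 1502, 821 and 604, against 981, 493 and 637 in WT129, overlapping (0.42, −0.43 to 1.28, adjusted p = 0.775). All 6 libraries of the second table were above all 12 of the first, a difference that was not tested because the tables were normalized separately.

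C3ar1, the receptor for the C3a fragment, is carried mainly by myeloid cells and lies on chromosome 6 (122847138 to 122856161, minus strand). It had 97.2, 134 and 130 normalized counts in RPE labelled Mertk-/-V2Tyro3-/-V2 and 64.6, 59.6 and 89.7 in Tyro3-/-V1, against 51.8, 56.9 and 75.9 (lowest, median and highest) in C57BL/6. The first group overlapped neither of the others. The log2 fold change against C57BL/6 was 0.97 (0.47 to 1.48), short of the threshold by limma (adjusted p = 0.0857; exact permutation p = 0.0238) and past it by DESeq2. Itgb5-/- had 45.1, 22.3 and 35, against 27.1, 25.6 and 82.5 in WT129, overlapping, and the direction of that change (log2 −0.23, adjusted p = 0.921) turned without Itgb5-/- replicate 2 or WT129 replicate 3.

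Levels can be set against each other only per length of transcript, as reads per kb of exon scaled to the reads of the library. On that scale the order in RPE labelled Mertk-/-V2Tyro3-/-V2 was C4b (28.5 ± 7.32), Serping1 (25.2 ± 0.972), C1qa (15.8 ± 4.33), C1qb (13.9 ± 2.52), C1qc (8.23 ± 1.17), C1ra (4.81 ± 0.519), C1s1 (4.05 ± 0.764), C2 (2.4 ± 0.475), C3 (2.13 ± 0.723) and C3ar1 (1.12 ± 0.201; SD, n = 3). C4b and Serping1, C1qa and C1qb, C1ra and C1s1, and C2 and C3 were within their spread of each other. In C57BL/6 Serping1 led (17.9 ± 3.07), followed by C1qa (8.55 ± 1.55), C1qb (8.12 ± 0.992) and C4b (7.65 ± 2.19), which were within their spread, and C3 (1.23 ± 0.553) was above only C3ar1 (0.542 ± 0.0795; SD, n = 6). C4b thus led in RPE labelled Mertk-/-V2Tyro3-/-V2, level with Serping1, and came after Serping1 and beside C1qa and C1qb in C57BL/6. In WT129 Serping1 also led (17.9 ± 3.19), and C3 (5.95 ± 1.96) stood above C1ra (1.47 ± 0.122), C1s1 (1.09 ± 0.48) and C2 (0.806 ± 0.287; SD, n = 3).

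Of 49 other complement genes listed, among them the alternative and lytic pathways and their regulators, 26 were tested among Itgb5-/- and WT129 and 31 among the other groups. In RPE labelled Mertk-/-V2Tyro3-/-V2 2 of 31 rose against C57BL/6 by limma and 0 fell, where 0.274% of all genes rose and 0.249% fell. The median log2 fold change was 0.31. The 2 called were Cd59a, which blocks the lytic pore (1.00 ± 0.12, adjusted p = 0.0119), and Cfi, the protease that cleaves C3b and C4b (2.00 ± 0.34, adjusted p = 0.0362). In Tyro3-/-V1 against C57BL/6, between the mutant groups and in Itgb5-/- against WT129, limma called 0 of these genes. An unadjusted p below 0.05 was reached by 8 of 31 in RPE labelled Mertk-/-V2Tyro3-/-V2 (21.9% of all genes), 3 of 31 in Tyro3-/-V1 (6.71%), 5 of 31 between the mutant groups (13.8%) and 2 of 26 in Itgb5-/- (8.28%). These unadjusted counts, unlike the 2 calls, are near the share of all genes. The Cfi value in Itgb5-/- was a log2 fold change of −1.67 (adjusted p = 0.367), with every Itgb5-/- library below every WT129 library.

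The genes whose levels were most like those of 3 members across the 12 libraries of the first table were sought among 13402 genes, by Pearson's r of log2 values. For C4b they were Irgm2 (r = 0.96), Mindy2 (0.96), Chrnb4 (0.95), Ifit2 (0.93) and Cmpk2 (0.93). Irgm2, Ifit2 and Cmpk2 are known as interferon-induced genes. In the 6 libraries of the second table r with C4b was −0.14 for Irgm2, 0.10 for Mindy2, 0.24 for Chrnb4, 0.58 for Ifit2 and −0.12 for Cmpk2. For C1qa they were C1qb (0.95), Ccng1, Adgre1, Fcrls and Laptm5 (0.93 each), and in the second table r was 0.94, −0.09, 0.77, 0.67 and 0.99 for these 5 in turn. Adgre1, Fcrls and Laptm5 are markers of macrophages, microglia and leukocytes. For C3 they were Sub1 (0.91), Tmsb10 (0.88), Pspc1, Rap2b and Aig1 (0.86 each), with r of −0.09, −0.04, −0.12, 0.67 and 0.38 in the second table. The libraries of a table share their normalization, and the groups themselves set much of the spread over which these values run, so they describe likeness in these libraries only.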

How the data were processed

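RPE RNA was extracted with a column kit and sequenced as paired ends, per the labels' protocols. The submitters' processing notes name STAR, DESeq2, GRCm38 and mm10, without versions; the counting tool, its annotation and its strand setting are not given in the sources used here. The deposited unit is a signal, which the authors call normalized counts, in 2 tables normalized separately, so tests stay within a table. Each value above 0 is a whole number of reads times a factor per library (100% whole, within 0.001 read), which gave back reads and depth.

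The 10 members, the gene lists and the tests were chosen with earlier results of these data known. Genes reaching 10 normalized counts in 3 or more libraries of a table were tested by limma 3.58.1 (R 4.3.3; trend, robust) on log2 of the normalized count plus a pseudocount of 1, two-sided, with Benjamini-Hochberg adjustment over the whole table and a threshold of 0.05. The first table's model had group and the mark 23 (8 residual degrees of freedom), the second's group only (4). Fold changes are on that log2 scale and understate changes of low genes. Replicates are called biological in the labels, with no animal named, so p-values measure the spread between these samples. Limits set by counts of 0 use 3 reads and cover counting error only.

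The genes named are the 10 members, their near copies C4a, C1rb and C1s2, up to 5 other complement genes past the threshold per comparison, the targeted genes and the 5 genes most like C4b, C3 and C1qa among those with a mean of at least 50, gene models left out. C1rl and Gm16567 were added after values were seen. Positions are from GENCODE on GRCm38. The alternatives tried were each library left out, edgeR 4.0.16 and DESeq2 1.42.0 on recovered reads, TMM rescaling, the filter dropped or raised to 50, a pseudocount of 0.5 or of 10, a replicate block, a fit of the compared groups alone, and a fit without the mark term or with marked libraries alone. The models were tested on simulated data. Lines with no gene name, at most 0.0203% of a library, were left out.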

Additional observations from a re-analysis of the deposited data

Results flagged for a closer look

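C3 in C57BL/6 replicate 4 had 316 normalized counts, while the next highest of the 6 C57BL/6 libraries had 150. The gap was 0.811 of the range of the group, above Dixon's critical value of 0.625 for 6 samples. It was the only flag among the 10 members, each tested in the C57BL/6 group alone since the other groups have 3 libraries, and chance flags about 1 in 20 such groups.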

How the results depend on the processing

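Of 689 alternative values of single members, 678 kept their direction and 11 reversed. In RPE labelled Mertk-/-V2Tyro3-/-V2 against C57BL/6 the 3 calls became 6 with DESeq2, 1 with only the compared groups and 0 with only marked libraries, and were 0 to 3 over the fits that left out a library (0 without C57BL/6 replicate 1 or 2, 3 without replicate 4, 1 without any of the others). For Tyro3-/-V1 against C57BL/6 the 0 calls became 1 with DESeq2. Between these mutant groups the 1 call became 3 with DESeq2, and 0 with the replicate block and with only the compared groups, and was 0 to 1 over the fits that left out a library. For Itgb5-/- against WT129 the 1 call became 2 with DESeq2, and 0 with edgeR, with the replicate block and in every fit that left out a library (0 to 0). The cause of these changes was not tested. Replicate numbers were not taken as pairs in the main fit, and same-numbered libraries deviated with correlations of −0.21 to 0.56. Between the mutant groups these were 0.56, 0.06 and 0.52 for numbers 1 to 3, so a pairing there is not excluded. That is the comparison whose 1 call, C4b, was lost with the block. With the number as a block, C3ar1 was called as well in RPE labelled Mertk-/-V2Tyro3-/-V2 against C57BL/6.

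The reversals were small. In Tyro3-/-V1 against C57BL/6, C2 was −0.093 without the term for the mark and −0.014 without C57BL/6 replicate 2, with a range of −0.014 to 0.34 over the fits that left out a library. Between the mutant groups C1s1 was 0.0017 without replicate 1 and 0.09 without replicate 3 of the group labelled Mertk-/-V2Tyro3-/-V2, and 0.12 without Tyro3-/-V1 replicate 3, within a range of −0.19 to 0.12. In Itgb5-/- against WT129, without Itgb5-/- replicate 1, C1qa was −0.0026, C1qc −0.057, C4b −0.093 and Serping1 −0.062; the highest values with a library left out were 0.51, 0.43, 0.53 and 0.32 for these genes in turn. C3ar1 was 0.04 without Itgb5-/- replicate 2 and 0.31 without WT129 replicate 3, within a range of −0.52 to 0.31. C3ar1, C2 and C1ra in the second table rest on few reads, which limits their precision.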
